A study of Mus musculus with 49 samples.

Results

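The 10 genes that mark cortical inhibitory interneurons were followed in the neocortex of rNLS8 mice, a model in which human TDP-43 without its nuclear localisation signal is switched on in neurons. They were Gad1, Gad2, Slc32a1, Lhx6, Pvalb, Sst, Vip, Npy, Cck and Calb2, taken by symbol from the table of read counts. All 10 were among its 45252 genes, and all 10 were among the 18220 genes kept by the filter on low counts. Bulk mRNA was sequenced from 49 mice with mixed C57BL/6J x C3H/HeJ parentage, each library from a separate animal. The ctrl-PBS group held 17 monogenic mice (10 female, 7 male) that carried tetO-hTDP43ΔNLS without the driver. The other 32 mice were bigenic for NEFH-tTA and tetO-hTDP43ΔNLS. They comprised TDP-PBS, 10 mice given PBS (4 female, 6 male), TDP-10+12, 10 mice immunized with the combined peptides 10 and 12 of the glycine-rich domain (6 female, 4 male), and TDP-15, 12 mice immunized with peptide 15, which carries the phosphorylation site at the C-terminus (5 female, 7 male). Immunization began at 8 weeks of age, with 5 injections before and 1 after induction, each of 40 µg ovalbumin-coupled peptide or of PBS in its place, with CpG oligonucleotide and Alhydrogel in the regimen. Doxycycline was removed at 25.5 weeks, and tissue was taken 3 weeks later, at 28.5 weeks. The NEFH promoter, which is active in neurons, drives the transactivator. Which classes of interneuron carry the transgene is not given in the sources used here. Libraries held 17775738 to 21033608 counts, and the lowest count of any of the 10 genes in any mouse was 123.

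Inhibitory interneurons release GABA. Gad1 and Gad2 encode the glutamate decarboxylases GAD67 and GAD65, which make it from glutamate, and Slc32a1 encodes the transporter that loads it into vesicles. These 3 genes are shared by inhibitory neurons of the cortex and of other brain regions, including the spiny projection neurons of the striatum and the granule cells of the olfactory bulb. Lhx6 encodes a transcription factor of interneurons born in the medial ganglionic eminence, the source of the classes that express the calcium-binding protein parvalbumin (Pvalb) or the neuropeptide somatostatin (Sst). Vip marks a class from the caudal ganglionic eminence, and Calb2, which encodes calretinin, is found in part of the Vip class and of the Sst class. Npy marks neurogliaform and part of the Sst cells. Cck marks basket cells but is also transcribed in many pyramidal neurons, so it is not selective for interneurons.

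In GRCm38.p6, 4 of the genes lie on chromosome 2, namely Gad2 at chr2:22621015-22693877, Lhx6 at chr2:36081950-36105992, Gad1 at chr2:70561303-70602014 and Slc32a1 at chr2:158607260-158615747. The others lie apart, with Npy at chr6:49822710-49829507, Calb2 at chr8:110142526-110168212, Cck at chr9:121489824-121495694, Vip at chr10:5639193-5647617, Pvalb at chr15:78191112-78206400 and Sst at chr16:23889573-23891342. An antisense gene, Gad1os, covers 651 exon bases of Gad1, and another, Gm14205, covers 722 exon bases of Slc32a1. The counting is not stated to use strand, so reads of such partners cannot be told apart. Gad1os was listed at no more than 22 counts in any mouse.

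Relative to the whole library, the 4 neuropeptide genes Sst, Vip, Cck and Npy were lower in all 3 bigenic groups, as described below. Gad1 and Pvalb were lower in all 3 groups too. Promoters are printed here for the 4 peptide genes alone. Each window runs from 250 bases before to 50 bases after the transcript start of RefSeq (GRCm38.p6), 5′ to 3′ on the gene's strand, at chr16:23890795-23891094 (minus) for Sst, chr10:5638968-5639267 (plus) for Vip, chr9:121495645-121495944 (minus) for Cck and chr6:49822460-49822759 (plus) for Npy. Capitals mark TGACG on either strand, the core of the cAMP response element. The full palindrome TGACGTCA holds 2 overlapping cores.
Sst: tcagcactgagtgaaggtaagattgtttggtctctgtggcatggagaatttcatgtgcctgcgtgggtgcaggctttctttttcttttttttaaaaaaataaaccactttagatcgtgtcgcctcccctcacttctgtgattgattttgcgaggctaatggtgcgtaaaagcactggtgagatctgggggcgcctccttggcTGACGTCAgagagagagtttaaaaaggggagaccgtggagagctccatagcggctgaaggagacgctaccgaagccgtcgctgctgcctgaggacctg
Vip: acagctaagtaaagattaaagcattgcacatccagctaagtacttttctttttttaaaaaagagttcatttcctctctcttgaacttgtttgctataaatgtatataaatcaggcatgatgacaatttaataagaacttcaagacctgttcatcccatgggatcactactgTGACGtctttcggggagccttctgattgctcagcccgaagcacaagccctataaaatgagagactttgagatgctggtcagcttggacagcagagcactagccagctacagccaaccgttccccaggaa
Cck: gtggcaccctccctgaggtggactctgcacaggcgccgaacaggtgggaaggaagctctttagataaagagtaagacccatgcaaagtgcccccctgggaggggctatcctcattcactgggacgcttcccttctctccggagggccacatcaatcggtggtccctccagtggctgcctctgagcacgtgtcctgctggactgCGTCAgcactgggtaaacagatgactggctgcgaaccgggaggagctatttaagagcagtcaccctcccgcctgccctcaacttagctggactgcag
Npy: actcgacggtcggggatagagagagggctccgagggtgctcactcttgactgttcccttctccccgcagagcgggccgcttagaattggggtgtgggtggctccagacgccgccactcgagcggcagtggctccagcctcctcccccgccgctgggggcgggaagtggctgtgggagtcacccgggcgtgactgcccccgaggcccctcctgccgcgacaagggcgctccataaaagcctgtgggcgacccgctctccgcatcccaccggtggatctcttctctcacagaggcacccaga
Windows were at hand for 9 of the 10 genes, 12 windows in all. The full element was in 1 of the 9, Sst, 48 bases before the start, against 1.79% of the 32851 windows of all genes. A core was in 4 of the 9 genes, against 20.8% of all windows. It began 79 bases before the start in Vip, 47 in Cck and 33 in Gad2. The Npy window held none of these letters, although Npy was among the genes with the largest fall. The windows of Gad1 and Pvalb, which also fell, held none either. A match describes the sequence and not a bound site.

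Levels between genes were compared as CPM (counts scaled to the library total) per kilobase of merged exons (GENCODE vM21). In ctrl-PBS mice Sst, Cck and Npy stood highest, with a median of 411.4 CPM per kilobase for Sst (294.1 to 479.5), 229.2 for Cck (176.8 to 287.7) and 219.8 for Npy (176.8 to 293.7). The ranges of Cck and Npy lay almost on each other. Slc32a1 (52.2), Pvalb (44.4), Gad1 (36.6) and Gad2 (31.3) followed, with ranges that overlapped between neighbours in this order but not between Slc32a1 and Gad2. Calb2 (8.05), Vip (5.98) and Lhx6 (5.89) were lowest, and their ranges overlapped too. Merged exons count every annotated isoform, so genes with rarely used exons are set too low on this scale.

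The first question was how induction of the transgene bore on these genes. Tested with edgeR's quasi-likelihood fit over all mice and all genes, 7 of the 10 differed between TDP-PBS and ctrl-PBS at a Benjamini-Hochberg adjusted p under 0.05, where 43.5% of all genes did. Of these, 6 fell, where 21.6% of all genes fell, and 1 rose, where 21.9% rose. Gad1, Pvalb, Sst, Vip, Npy and Cck were lower, and Lhx6 was higher. The median log2 fold change of the 10 was -0.44, beside 0.00 over all genes. In TDP-10+12, 8 of the 10 differed from ctrl-PBS (40.8% of all genes), 7 lower (20%) and 1 higher (20.8%), with a median of -0.27 beside 0.00. In TDP-15, 8 of the 10 differed (46.9% of all genes), 7 lower (23.2%) and 1 higher (23.6%), with a median of -0.41 beside 0.00. Slc32a1 was the additional lower gene in both immunized groups. The 3 comparisons share the ctrl-PBS mice and are therefore not independent of each other.

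These changes are relative to the whole library. The pan-neuronal markers, led by Snap25, were themselves lower in bigenic mice (summed level from 6726 to 8084 CPM in ctrl-PBS and from 4853 to 5830 in TDP-PBS, with 6 of 8 lower and 0 higher). Scaling each library by that sum raised the median of all genes by 0.40, 0.41 and 0.39 in TDP-PBS, TDP-10+12 and TDP-15. On that scale Cck stayed lower and Lhx6 stayed higher in all 3 groups, Npy stayed lower in TDP-PBS and TDP-15, Pvalb stayed lower in TDP-10+12, and Sst turned higher in TDP-PBS (0.16) and TDP-10+12 (0.18), as did Gad2 in both (0.38 and 0.43) and Slc32a1 in TDP-PBS (0.25). All values below are relative to the whole library. In bulk tissue, fewer cells of a class and less RNA per cell cannot be told apart.

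**Figure D1:**
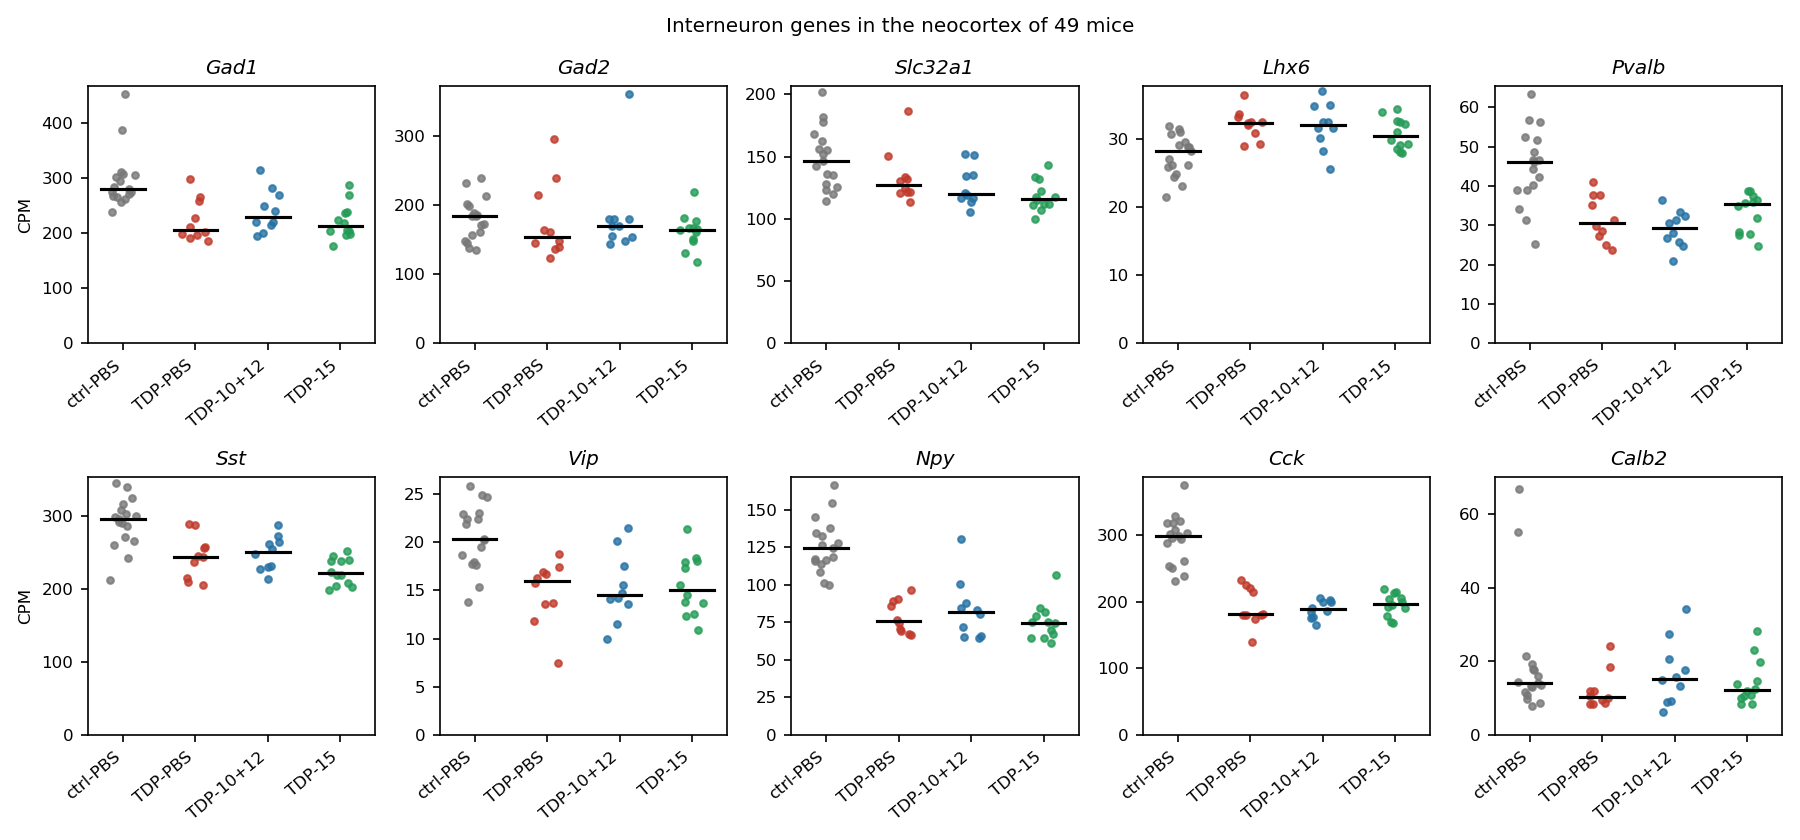
CPM of the 10 interneuron genes in each of the 49 mice, by group; each point is a mouse and the black line is the group median. Relative to the whole library, Npy and Cck show the clearest separation from ctrl-PBS, Lhx6 is the gene that lies higher in bigenic mice, and Gad2 overlaps throughout; scaled by pan-neuronal markers, Cck is still lower in each group and Npy in TDP-PBS and TDP-15.

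The enzymes of GABA synthesis differed from one another. Gad1 ranged from 238 to 453 CPM in ctrl-PBS, with a median of 280. It ranged from 186 to 298 in TDP-PBS (median 206), from 194 to 313 in TDP-10+12 (median 230) and from 176 to 288 in TDP-15 (median 212). In 21 of the 32 bigenic mice it was under the lowest ctrl-PBS value and in 28 under the ctrl-PBS median, with overlap left in each group. Gad1 thus fell, with a log2 fold change of -0.41 ± 0.09 (SE; adjusted p = 0.00014, edgeR) in TDP-PBS, -0.30 ± 0.09 in TDP-10+12 (adjusted p = 0.0041, edgeR) and -0.42 ± 0.08 in TDP-15 (adjusted p = 3.4e-05, edgeR). Scaled by pan-neuronal markers, the Gad1 difference was -0.01 in TDP-PBS, 0.10 in TDP-10+12 and -0.04 in TDP-15, none of them called.

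Gad2 ranged from 135 to 240 CPM in ctrl-PBS (median 184), from 124 to 297 in TDP-PBS (median 155), from 144 to 361 in TDP-10+12 (median 170) and from 118 to 219 in TDP-15 (median 165). The groups overlapped almost fully, although 27 of 32 bigenic mice lay below the ctrl-PBS median. No group passed the test, at a log2 fold change of -0.02 (95% interval -0.27 to 0.22) in TDP-PBS, 0.03 (-0.21 to 0.28) in TDP-10+12 and -0.14 (-0.38 to 0.09) in TDP-15. TDP-PBS mouse 217 had 297 CPM and TDP-10+12 mouse 301 had 361, beyond the highest ctrl-PBS mouse. Limma-voom, which gives outlying libraries less weight, put the differences at -0.13, -0.09 and -0.13, also not called.

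Whether the 2 enzymes differed in their response was tested on their ratio within each mouse, a comparison added once the values were known. The log2 ratio of Gad1 to Gad2 ranged from 0.40 to 1.06 in ctrl-PBS (median 0.69), from 0.01 to 0.59 in TDP-PBS (median 0.41), from -0.20 to 0.66 in TDP-10+12 (median 0.45) and from 0.23 to 0.65 in TDP-15 (median 0.43). All 32 bigenic mice lay below the ctrl-PBS median, and 5, 2 and 6 of them in the 3 groups lay below every ctrl-PBS mouse. The mean ratio was lower by a log2 difference of -0.35 in TDP-PBS (p = 0.0001, adjusted p = 0.0003), -0.30 in TDP-10+12 (p = 0.00062, adjusted p = 0.00062) and -0.27 in TDP-15 (p = 0.00021, adjusted p = 0.00032) in two-sided permutation tests, adjusted over 3 comparisons. This ratio needs no scaling between libraries. Across ctrl-PBS mice, r with the summed striatal markers described below was 0.76 for Gad2 and 0.52 for Gad1, which did not pass. The part of striatal tissue in the ratio was not tested. Without the 5 mice that had olfactory bulb markers above 100 CPM, the differences were -0.32, -0.33 and -0.24 (adjusted p = 0.00045, 0.00045 and 0.0012, permutation test).

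Slc32a1, the vesicular GABA transporter, ranged from 114 to 202 CPM in ctrl-PBS (median 146), from 114 to 187 in TDP-PBS (median 128), from 106 to 152 in TDP-10+12 (median 120) and from 99.6 to 143 in TDP-15 (median 116). All groups overlapped, and every TDP-15 mouse lay below the ctrl-PBS median. Its log2 fold change in TDP-PBS was -0.15 (95% interval -0.31 to 0.00), which did not pass the test (adjusted p = 0.11, edgeR). It was -0.23 ± 0.08 in TDP-10+12 (adjusted p = 0.014, edgeR) and -0.33 ± 0.07 in TDP-15 (adjusted p = 0.00023, edgeR), and with pan-neuronal scaling it became 0.25, 0.17 and 0.057 in the 3 groups. The difference between TDP-15 and TDP-PBS itself was -0.17 (95% interval -0.34 to -0.01, p = 0.043, adjusted p = 0.9996 in edgeR).

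Lhx6 was the one member that rose. It ranged from 21.4 to 32.0 CPM in ctrl-PBS (median 28.3), from 29.0 to 36.6 in TDP-PBS (median 32.4), from 25.6 to 37.1 in TDP-10+12 (median 32.1) and from 28.0 to 34.5 in TDP-15 (median 30.5). All 10 TDP-PBS mice lay above the ctrl-PBS median, and 17 of the 32 bigenic mice exceeded the highest ctrl-PBS value. Its log2 fold change was 0.22 ± 0.05 in TDP-PBS, a rise of 16.8% (adjusted p = 0.00063, edgeR), 0.21 ± 0.05 in TDP-10+12 (adjusted p = 0.0013, edgeR) and 0.16 ± 0.05 in TDP-15 (adjusted p = 0.0087, edgeR). It passed in all 11 alternative fits of each comparison.

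Pvalb and Sst, which mark the classes that derive from Lhx6-expressing progenitors, went the other way. Pvalb ranged from 25.2 to 63.4 CPM in ctrl-PBS (median 46.2), from 23.7 to 40.9 in TDP-PBS (median 30.6), from 20.9 to 36.5 in TDP-10+12 (median 29.3) and from 24.7 to 38.7 in TDP-15 (median 35.3). All 32 bigenic mice were below the ctrl-PBS median, but only 5 were below every ctrl-PBS mouse, since the ctrl-PBS mice spread widely (coefficient of variation 21.8%). Pvalb differed by a log2 fold change of -0.50 ± 0.11, -0.63 ± 0.11 and -0.44 ± 0.10 in TDP-PBS, TDP-10+12 and TDP-15 (adjusted p = 0.00010, 3e-06 and 0.00025, edgeR). On the pan-neuronal scale it passed in TDP-10+12 alone.

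Sst ranged from 212 to 346 CPM in ctrl-PBS (median 297), from 205 to 289 in TDP-PBS (median 244), from 214 to 287 in TDP-10+12 (median 251) and from 199 to 253 in TDP-15 (median 222). Again all 32 bigenic mice lay below the ctrl-PBS median and the ranges overlapped, with 6 mice below every ctrl-PBS mouse. Its change was the smallest among the class markers that fell, at -0.25 ± 0.06 in TDP-PBS , -0.23 ± 0.06 in TDP-10+12 and -0.38 ± 0.06 in TDP-15 (adjusted p = 0.00057, 0.0020 and 2.4e-07, edgeR), and its sign turned with pan-neuronal scaling in all 3 groups (0.16, 0.18 and 0.013).

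Vip, the least abundant peptide gene per length, ranged from 13.8 to 25.8 CPM in ctrl-PBS (median 20.3), from 7.45 to 18.8 in TDP-PBS (median 16.0), from 9.90 to 21.5 in TDP-10+12 (median 14.5) and from 10.9 to 21.4 in TDP-15 (median 15.1). In 30 of 32 bigenic mice it was below the ctrl-PBS median, and in 12 it was under the lowest ctrl-PBS value. Its decrease came to a log2 fold change of -0.47 ± 0.12, -0.43 ± 0.12 and -0.40 ± 0.11 (adjusted p = 0.00079, 0.0023 and 0.0019, edgeR). With pan-neuronal scaling none of these passed.

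Npy, a peptide of neurogliaform and Sst-class cells, had the largest fall in TDP-15 and a clear separation in TDP-PBS. The gene ranged from 100 to 166 CPM in ctrl-PBS (median 124), from 66.6 to 96.7 in TDP-PBS (median 75.6), from 64.7 to 131 in TDP-10+12 (median 81.8) and from 60.8 to 107 in TDP-15 (median 74.7). All 10 TDP-PBS mice lay below every ctrl-PBS mouse, and Npy was the 1 member of the 10 without overlap in that comparison, where 2.58% of all genes were lower without overlap. In the other groups 8 of 10 and 11 of 12 mice did so. Log2 fold changes were -0.68 ± 0.09 (adjusted p = 3e-08, edgeR), -0.59 ± 0.09 (adjusted p = 5.8e-07, edgeR) and -0.74 ± 0.09 (adjusted p = 5.1e-10, edgeR). On the linear scale Npy fell by 37.5% in TDP-PBS and fell by 40.3% in TDP-15.

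Cck fell by a similar amount in each group. It ranged from 231 to 375 CPM in ctrl-PBS (median 299), from 140 to 234 in TDP-PBS (median 181), from 165 to 206 in TDP-10+12 (median 188) and from 168 to 220 in TDP-15 (median 197). Every bigenic mouse but 1 of the 32 (31 mice) was under the lowest ctrl-PBS value. Cck was the 1 member without overlap in TDP-10+12 (2.59% of all genes lower without overlap) and in TDP-15 (3.08%). Cck changed by a log2 fold change of -0.60 ± 0.07, -0.64 ± 0.07 and -0.58 ± 0.06 (adjusted p = 9.3e-11, 2.7e-11 and 3.3e-11, edgeR). The summed excitatory neuron markers moved with it, from 5727 to 8507 CPM in ctrl-PBS to 4342 to 6412 in TDP-PBS, with 4 of 12 lower and 1 higher in that comparison. Their part in the result was not tested.

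Calb2 had the widest spread, with a coefficient of variation of 83.4% in ctrl-PBS. It ranged from 7.83 to 67.0 CPM in ctrl-PBS (median 14.0), from 8.43 to 24.2 in TDP-PBS (median 10.3), from 6.09 to 34.3 in TDP-10+12 (median 15.2) and from 8.44 to 28.3 in TDP-15 (median 12.1). Its log2 fold change was -0.68 in TDP-PBS (95% interval -1.26 to -0.09, adjusted p = 0.055, edgeR), -0.21 in TDP-10+12 (-0.78 to 0.36) and -0.44 in TDP-15 (-0.99 to 0.10), and none passed the test. Without the 5 mice with over 100 CPM of olfactory bulb markers (2 of ctrl-PBS, 2 of TDP-10+12 and 1 of TDP-15), it was -0.19, -0.07 and -0.09.

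**Figure D2:**
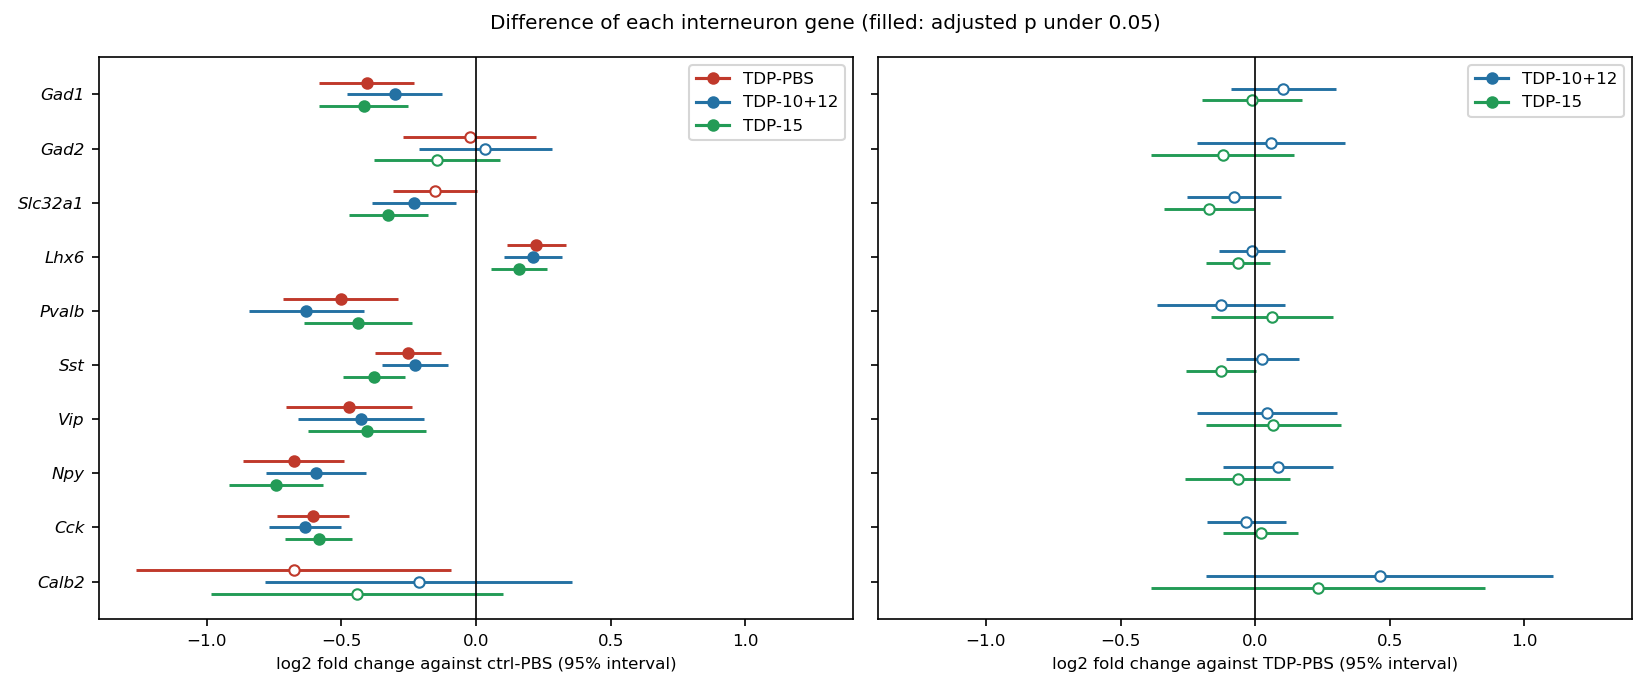
Log2 fold change of each gene with its 95% interval from edgeR, on the left for the 3 bigenic groups against ctrl-PBS and on the right for the immunized groups against TDP-PBS; filled points have an adjusted p under 0.05. Relative to the whole library, the class markers other than Calb2 lie left of 0 and Lhx6 right of 0 on the left side, where pan-neuronal scaling moves the Sst points to 0.16, 0.18 and 0.013, while every point on the right side is open.

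The next question was whether immunization altered these genes in bigenic mice. None of the 10 passed between TDP-10+12 and TDP-PBS, between TDP-15 and TDP-PBS, or between TDP-10+12 and TDP-15, and 0% of all genes did in each comparison. At an unadjusted p under 0.05 there were 953, 552 and 1244 of 18220 genes by edgeR, and DESeq2 and limma-voom also called 0 of the 10. For Cck the log2 difference was -0.03 (95% interval -0.18 to 0.11) in TDP-10+12 and 0.02 (-0.12 to 0.16) in TDP-15 against TDP-PBS. For Lhx6 it was -0.01 (-0.13 to 0.11) and -0.06 (-0.18 to 0.05). For Npy it was 0.08 (-0.12 to 0.29) and -0.07 (-0.26 to 0.13). Gad1 gave 0.10 (-0.09 to 0.30) and -0.01 (-0.20 to 0.18), and Gad2 gave 0.06 (-0.22 to 0.34) and -0.12 (-0.38 to 0.14). Pvalb gave -0.13 (-0.37 to 0.11) and 0.06 (-0.16 to 0.29), and Vip gave 0.04 (-0.22 to 0.31) and 0.07 (-0.18 to 0.32). Calb2 was too variable to limit a difference, at 0.46 (-0.18 to 1.11) and 0.23 (-0.39 to 0.86). Sst was lowest in TDP-15, where it was -0.13 (-0.26 to 0.00) against TDP-PBS. Between the immunized groups Sst was higher in TDP-10+12 by 0.15 (0.02 to 0.28, p = 0.022, adjusted p = 0.65 in edgeR), which did not pass.

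Males and females were compared for the effect of genotype within the 27 PBS-treated mice. The interaction of genotype and sex called 0 of the 10 genes and 0% of the 17363 genes tested, with 1097 at an unadjusted p under 0.05 by edgeR. DESeq2 also called 0 of the 10. The largest of the 10 with respect to its error was Sst, whose log2 fold change was 0.26 higher in males (95% interval -0.01 to 0.53, p = 0.060, adjusted p = 0.79 in edgeR). For Gad1 the difference was -0.04 (-0.41 to 0.33) and for Cck it was 0.07 (-0.26 to 0.39).

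Markers of neighbouring brain regions varied between mice. Summed over 10 striatal markers, libraries ranged from 308 to 1564 CPM in ctrl-PBS, 612 to 1926 in TDP-PBS, 594 to 1522 in TDP-10+12 and 486 to 1156 in TDP-15. Of these markers 0 of 10 differed in TDP-PBS and in TDP-10+12, and 4 of 10 were lower in TDP-15. Olfactory bulb markers, 8 of 9 of them tested, summed to between 12.98 and 252 CPM in ctrl-PBS (median 24.1), between 17.5 and 49.1 in TDP-PBS (21.6), between 21.2 and 123 in TDP-10+12 (32.4) and between 16.8 and 143 in TDP-15 (25.6). No marker of either list was at 0 throughout a group. Of the olfactory bulb markers 4 of 8 were lower in TDP-PBS, 1 was higher in TDP-10+12 and none differed in TDP-15.

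Across the 17 ctrl-PBS mice, relations to these sums were computed for the 10 genes, 20 in all, once the values were known. Slc32a1 was higher where the striatal sum was higher (r = 0.81, p = 5e-05, adjusted p = 0.001; rho = 0.86, p = 2e-05, permutation test), and r was 0.77 without the 2 mice farthest from the median of that sum. Gad2 did so too (r = 0.76, p = 0.00037, adjusted p = 0.0026; rho = 0.81, p = 0.00018, permutation test; r = 0.78 without 2 mice). Vip went the opposite way (r = -0.73, p = 0.00099, adjusted p = 0.0050; rho = -0.78, p = 0.0004, permutation test; r = -0.79 without 2 mice), as did Cck (r = -0.60, p = 0.011, adjusted p = 0.035; rho = -0.70, p = 0.0021, permutation test; r = -0.63 without 2 mice). For Gad1, r did not pass (r = 0.52, p = 0.038, adjusted p = 0.076, permutation test; 0.62 without 2 mice) while rho did (rho = 0.71, p = 0.0020, adjusted p = 0.0070, permutation test). Calb2 (r = 0.21) did not pass by either measure, nor did Lhx6, Pvalb, Sst and Npy, with r between -0.34 and -0.09. For the olfactory bulb sum, ctrl-PBS mice 131 and 280 stood apart at 198 and 252 CPM, so the relation was taken over the other 15. Calb2 followed it (r = 0.80, p = 0.00039, adjusted p = 0.0026; rho = 0.86, p = 8e-05, permutation test; r = 0.79 without 2 mice). Gad2 passed by r alone (r = 0.66, p = 0.0087, adjusted p = 0.035; rho = 0.59, p = 0.024, permutation test), but its rho did not pass after adjustment (adjusted p = 0.068, permutation test) and its r was 0.40 without 2 mice. The other 8 genes did not pass.

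**Figure D3:**
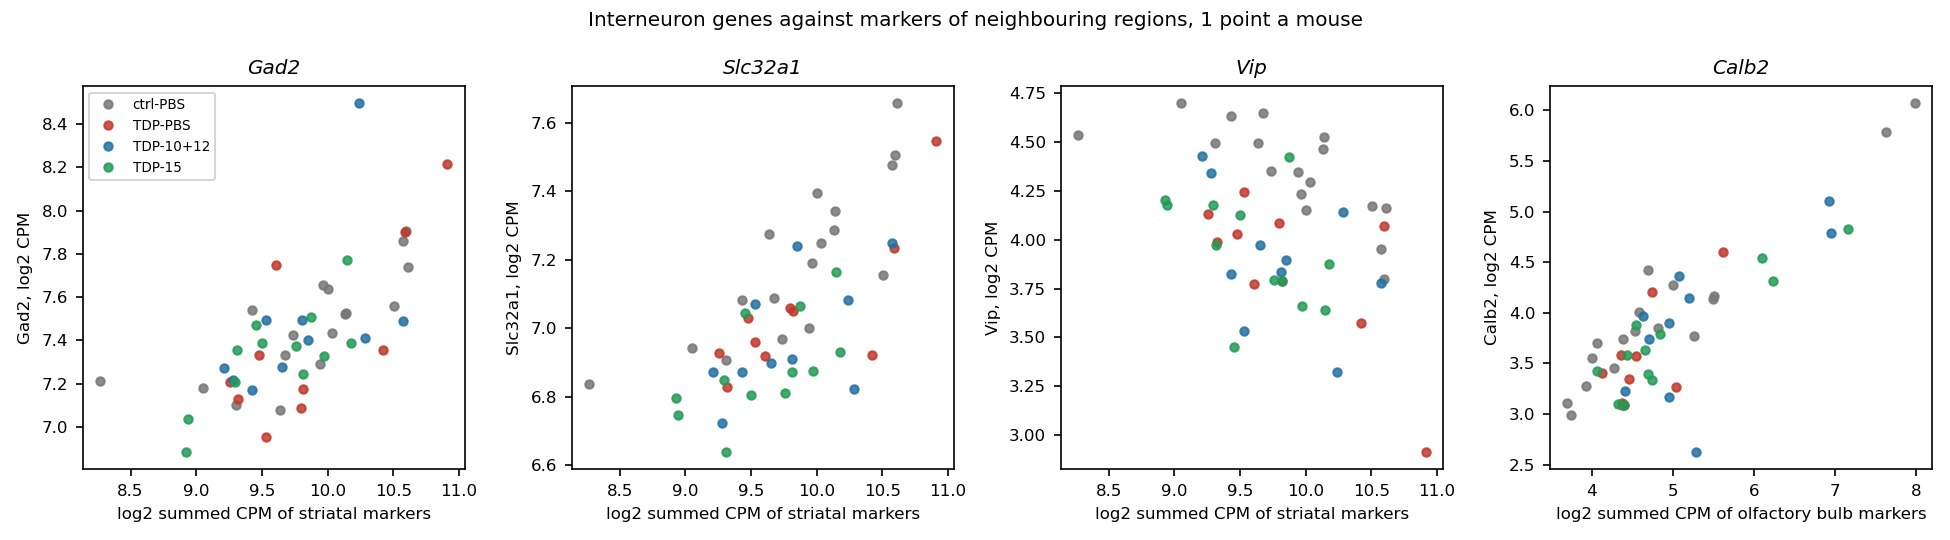
Log2 CPM of Gad2, Slc32a1 and Vip against the log2 summed CPM of 10 striatal markers, and of Calb2 against that of 8 olfactory bulb markers; each point is a mouse, coloured by group. Gad2 and Slc32a1 climb and Vip descends along the striatal sum, and Calb2 is highest in the ctrl-PBS mice at 198 and 252 CPM.

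With the log2 sums of both marker lists as covariates, a fit likewise added late, 8, 9 and 9 of the 10 genes passed in TDP-PBS, TDP-10+12 and TDP-15. Slc32a1 now passed in TDP-PBS (log2 fold change -0.13, adjusted p = 0.020, edgeR). Calb2 passed in TDP-10+12 (-0.33, adjusted p = 0.027, edgeR) and in TDP-15 (-0.40, adjusted p = 0.0044, edgeR) but not in TDP-PBS (-0.25, adjusted p = 0.11, edgeR). Gad2 remained uncalled at -0.02, 0.03 and -0.06, and Gad1 was -0.36, -0.34 and -0.38. The covariates are themselves measured in the same libraries, and 4 olfactory bulb markers differed between TDP-PBS and ctrl-PBS.

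The members also varied together from mouse to mouse. Of 45 pairs, 23 had an adjusted p under 0.05 for Pearson's r across the 17 ctrl-PBS mice by permutation test, 10 positive and 13 negative. This count is by r alone, and several of these pairs did not pass by rho. Among them were Gad1 and Lhx6 (adjusted p = 0.26 for rho) and Sst and Vip (adjusted p = 0.075 for rho, permutation test). Over all 49 mice with group means removed, 17 pairs passed, 9 positive and 8 negative. The GABA genes formed 1 set, with r = 0.76 for Gad2 and Slc32a1 (p = 0.00051, adjusted p = 0.0039; rho = 0.74, p = 0.0010; permutation test) and 0.86 without the 2 mice farthest in Gad2. Gad2 ran against Cck at r = -0.84 (p = 6e-05, adjusted p = 0.0027; rho = -0.88, p = 2e-05; permutation test), and r was -0.81 without 2 mice. Vip and Cck ran together at r = 0.74 (p = 0.00052, adjusted p = 0.0039; rho = 0.82, p = 7e-05; permutation test; 0.71 without 2 mice). Sst and Npy, which part of the Sst cells express together, did so at r = 0.66 (p = 0.0044, adjusted p = 0.012; rho = 0.68, p = 0.0036; permutation test; 0.69 without 2 mice), and at 0.62 over all 49 mice. The relation of Gad1 and Calb2 (r = 0.82, p = 0.0011, adjusted p = 0.0056, and rho = 0.45, p = 0.071, permutation test) fell to 0.22 without ctrl-PBS mice 131 and 280 and rests on them. The same held for Gad1 and Sst (from -0.78 to -0.32), Sst and Calb2 (from -0.75 to -0.27) and Gad1 and Lhx6 (from -0.58 to -0.10). Sst and Vip went from 0.68 to 0.42 without these mice. Pvalb and Sst went from 0.63 to 0.24 without the 2 mice farthest in Pvalb. Mice 131 and 280 are those with 198 and 252 CPM of olfactory bulb markers. These pairs share libraries and the variation of regional markers given above, whose part was not tested.

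**Figure D4:**
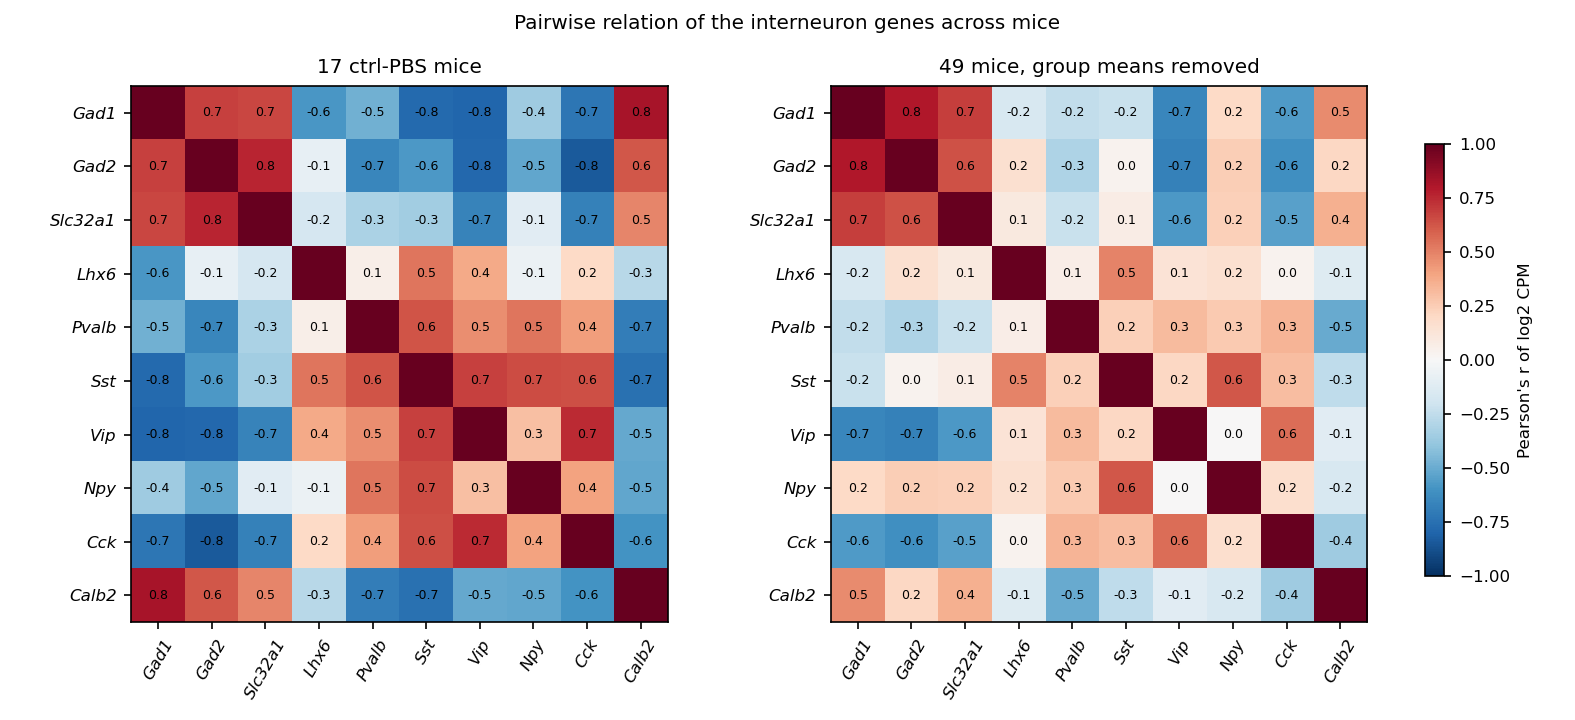
Pearson's r of log2 CPM for each pair of the 10 genes, on the left across 17 ctrl-PBS mice and on the right across 49 mice after removing group means; red is positive and blue negative. Gad1, Gad2 and Slc32a1 form a positive block that is negative with Vip and Cck on both sides.

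The gene most like a member over the 17 ctrl-PBS mice, by Pearson's r of log2 CPM, is given as a description. For Gad2 it was Tacr1 (r = 0.97), for Calb2 Gng4 (0.96), for Pvalb Vamp1 (0.93), for Vip Kcnc4 (0.92) and for Slc32a1 Rasgrp2 (0.91). For Gad1 it was Doc2g, which is in the list of olfactory bulb markers (0.93, and 0.72 without ctrl-PBS mice 131 and 280). Cck, Lhx6 and Npy had lower best values, with Paqr7 (0.88), Naa35 (0.85) and Slc35a4 (0.81). In the pooled 32 bigenic mice the value was 0.77 for Pvalb with Vamp1, which encodes a synaptic vesicle protein, and 0.75 for Gad2 with Tacr1.

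Other genes of inhibitory neurons were read from fixed lists, with counts in TDP-PBS against ctrl-PBS and the median log2 fold change beside 0.00 over all genes. Each count relative to the whole library is to be read against the shares of all genes. These were 21.6% lower and 21.9% higher in TDP-PBS, 20% and 20.8% in TDP-10+12, and 23.2% and 23.6% in TDP-15. The list counts with pan-neuronal scaling are of TDP-PBS, where that scaling called 12855 of all 18220 genes higher and 486 lower. They are to be read against those numbers instead, and more genes higher than lower is not particular to a list. Of 10 genes of the parvalbumin class, 6 fell and 0 rose (median -0.27), and with pan-neuronal scaling 1 was lower and 4 higher. They included Syt2, the synaptotagmin of fast-spiking terminals (-0.62 ± 0.10), the potassium channel subunits Kcnab3 (-0.50 ± 0.10) and Kcns3 (-0.42 ± 0.11), and Lgi2 (-0.37 ± 0.09). Of 10 genes of the somatostatin class, 5 fell and 0 rose (median -0.34; 1 lower and 3 higher with pan-neuronal scaling), led by the synaptic organiser Cbln4 (-1.26 ± 0.19), calbindin (Calb1, -0.58 ± 0.09), Grin3a (-0.34 ± 0.09) and Crhbp (-0.34 ± 0.11). In TDP-10+12 that list had 2 of 10 lower, no more than the 20% of all genes, and 1 higher, and in TDP-15 it had 5 lower and 0 higher, while the parvalbumin list had 6 lower and 0 higher in both.

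Of 13 genes of the Vip and caudal classes, 4 fell and 1 rose (median -0.30; 1 lower and 6 higher with pan-neuronal scaling). Lamp5, which marks neurogliaform cells and is also present in pyramidal neurons, fell the most at -1.51 ± 0.09 and was at -1.71 in TDP-10+12 and -1.62 in TDP-15. Id2 (-0.43 ± 0.06) and Reln (-0.30 ± 0.09) fell, and Tac2, a tachykinin of Vip cells, rose (0.56 ± 0.09). The list had 3 lower and 2 higher in TDP-10+12, and 6 lower and 1 higher in TDP-15. Among 17 interneuron transcription factors, 14 did not pass in TDP-PBS (median -0.07). Sox6 (0.16 ± 0.06) rose, and Satb1 (-0.29 ± 0.09) fell. With pan-neuronal scaling 8 were higher and 0 lower. In TDP-10+12 2 rose and 1 fell, and in TDP-15 3 rose and 2 fell.

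Next came the receptors for the peptides. Of 10 tested of 11, 6 fell and 0 rose in TDP-PBS (median -0.35; 3 lower and 2 higher with pan-neuronal scaling), among them the somatostatin receptors Sstr2 (-0.93 ± 0.11) and Sstr1 (-0.41 ± 0.09), the cholecystokinin receptor Cckbr (-0.78 ± 0.09) and the Vip receptor Vipr1 (-0.47 ± 0.10). The neuropeptide Y receptors Npy1r (0.00 ± 0.07), Npy2r (-0.08 ± 0.21) and Npy5r (0.03 ± 0.09), chosen after their values were seen, were not called in TDP-PBS. In TDP-10+12 5 fell and 1 rose, namely Npy5r (0.28 ± 0.09, adjusted p = 0.011, edgeR). In TDP-15 5 fell and 0 rose.

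In GABA metabolism and uptake, 3 of 8 genes fell and 2 rose (median -0.09), and the 2 that rose are close to the share of all genes. Aldh5a1, which breaks GABA down further, fell by 0.45 on the log2 scale. The amino acid transporters Slc38a2 (0.30 ± 0.06) and Slc38a1 (0.18 ± 0.04) rose. In TDP-10+12 4 fell and 2 rose, and in TDP-15 5 fell and 2 rose, and with pan-neuronal scaling in TDP-PBS 1 was lower and 4 were higher. The inhibitory synapse list was split, with 3 of 13 lower and 3 higher (median 0.01), close to the shares of all genes in both directions. The GABA-B receptor subunit Gabbr1 (-0.11 ± 0.03) fell, while Slitrk3 (0.18 ± 0.04), Nlgn2 (0.14 ± 0.05) and Lhfpl4 (0.14 ± 0.05) rose. With pan-neuronal scaling 12 of the 13 were higher. It had 4 lower and 2 higher in TDP-10+12, and 3 lower and 3 higher in TDP-15. Of 7 genes of perineuronal nets, the matrix that surrounds many Pvalb cells, 5 fell and 1 rose (median -0.22; 1 lower and 4 higher with pan-neuronal scaling). Hapln4 fell by 0.84, Ncan by 0.53 and Bcan by 0.22 on the log2 scale, and Tnr rose (0.19 ± 0.05). In both immunized groups 4 fell and 2 rose.

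**Figure D5:**
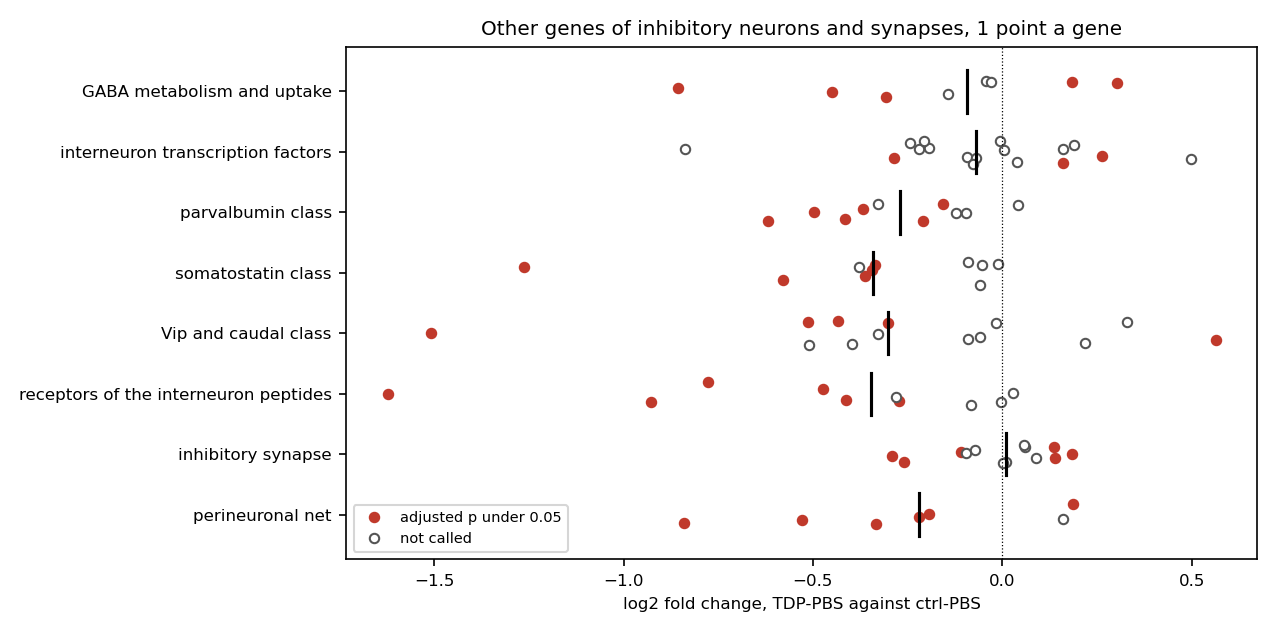
Log2 fold change of the other genes of inhibitory neurons between TDP-PBS and ctrl-PBS, relative to the whole library, 1 point a gene in 8 lists; filled points have an adjusted p under 0.05 and the bar is the list's median. The class lists and the peptide receptors lie mostly left of 0 and the synapse list around it. With pan-neuronal scaling more genes of the class lists were called higher than lower, as among all 18220 genes (12855 higher and 486 lower).

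Markers of other cell types were counted in the same fit for TDP-PBS. Microglia markers had 5 of 7 higher and 0 lower, and their sum went from 220 to 258 CPM in ctrl-PBS to 265 to 363 in TDP-PBS. Astrocyte markers had 1 of 5 higher and 1 lower, hippocampal markers 0 of 6 higher and 1 lower, and thalamic markers 1 of 6 higher and 2 lower. Oligodendrocyte (5), endothelial (4) and choroid plexus (4) markers had none called in TDP-PBS. In TDP-10+12 and TDP-15, microglia markers had 5 higher and 1 lower in each, and thalamic markers had 3 lower in each, with 1 higher in TDP-15. Hippocampal markers had 1 higher and 1 lower in TDP-10+12 and 1 lower in TDP-15, and astrocyte markers had 1 higher and 1 lower, and 1 higher and 2 lower. Choroid plexus markers had 3 of 4 higher in TDP-10+12 and 1 of 4 higher in TDP-15, and their sum ranged from 11.6 to 369 CPM in ctrl-PBS, 11.4 to 1279 in TDP-PBS, 21.6 to 1692 in TDP-10+12 and 12.9 to 1543 in TDP-15. Endothelial markers had 1 of 4 lower in TDP-15, and oligodendrocyte markers had none called in either immunized group. Excitatory neuron markers had 7 of 12 lower in TDP-10+12 and 5 lower and 1 higher in TDP-15. The part of these cells in the interneuron genes was not tested.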

How the data were processed

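Neocortical mRNA of 49 mice was sequenced as paired reads. The authors deposited raw read counts per gene, which are not normalized; alignment to GRCm38.p6 is given by the methods, and the submitters' processing notes name HISAT, HISAT2, Bowtie2, RSEM and Bowtie without versions. How strand was counted is not given in the sources used here. The 10 members and all lists were chosen with earlier results of these data known. Counts were tested with edgeR 4.0.16 in R 4.3.3 (filterByExpr by group, TMM, quasi-likelihood F test, all 49 mice in 1 fit, no covariate, Benjamini-Hochberg adjustment over 18220 genes, threshold 0.05). CPM used TMM-scaled totals, and log2 CPM a prior count of 2. Libraries held 17775738 to 21033608 counts. No 2 mice of a group agreed within sampling noise (smallest chi-squared per degree of freedom 7.77). Relations across mice used 100000 permutations (numpy 2.4.6) on log2 CPM. The genotype by sex interaction was fitted in the 27 PBS-treated mice. Every member is named, from each other list up to 4 genes with the smallest p in TDP-PBS plus any called against the list's majority, and per member the gene with the highest r; a few genes that this rule names are not reported here. Each comparison was refitted in 9 other ways, among them DESeq2 1.42.0 and limma 3.58.1, and 2 were added after the data had been seen. The scripts were tested on simulated data. Listed genes with too few counts (Cckar, Calca, Tdo2 and Spink8) were not tested. Promoter sequences came from RefSeq and gene lengths from GENCODE vM21.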

Additional observations from a re-analysis of the deposited data

Results flagged for a closer look

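Single mice stood apart in 2 of the 20 combinations of a gene and a group of 10 mice that were examined for a sample far from the others; chance gives about 1 in 20. Gad2 in TDP-10+12 mouse 301 was 360.8 CPM, and the next mouse of its group had 180.3 CPM. In that mouse Npy (131 CPM) was also the highest of its group, while Calb2 (6.09 CPM) was the lowest, and its summed striatal markers were 1207 CPM. Slc32a1 in TDP-PBS mouse 217 was 186.9 CPM, against 150.4 CPM in the next mouse. This mouse had the highest striatal sum of all mice, 1926 CPM, together with the highest Gad2 (297 CPM) and the lowest Vip (7.45 CPM) and Cck (140 CPM) of its group. The part of tissue composition in these values was not tested. No member passed the adjusted threshold for a difference of the genotype effect between sexes, or between immunized and PBS-treated bigenic mice.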

How the results depend on the processing

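Each comparison was refitted under 11 alternatives. The count of members called, whatever their direction, kept within 1.5 times its value in 64 of 66 refits. In the 3 comparisons among bigenic groups the count was 0 in the main fit and in every refit. Those refits therefore do not bear on the genotype calls. The 2 exceptions came with scaling by pan-neuronal markers, where 5 members were called in TDP-10+12 (3 higher, 2 lower) and 3 in TDP-15 (1 higher, 2 lower) against ctrl-PBS, and where TDP-PBS had 6 (4 higher, 2 lower). That scaling raises all genes together, by construction, wherever the neuronal sum is lower, and leaves 96.4%, 96.9% and 95.5% of called genes higher in the 3 groups, against 50.4%, 51.0% and 50.5% without it. Among single genes it turned the sign of Gad2 (0.38), Slc32a1 (0.25) and Sst (0.16) in TDP-PBS, of Gad1 (0.10), Slc32a1 (0.17) and Sst (0.18) in TDP-10+12, and of Slc32a1 (0.057) and Sst (0.013) in TDP-15. It also ended 8 calls without a change of sign (Gad1, Pvalb and Vip in TDP-PBS and TDP-15, Vip and Npy in TDP-10+12) and added Gad2 in TDP-10+12. The marker covariates added 3 calls, Slc32a1 in TDP-PBS and Calb2 in both immunized groups. Another 12 sign changes were of values called under neither fit. DESeq2 left all 30 list counts within 1.5 times, and pan-neuronal scaling moved 8 of 30. The interaction with sex called 0 members in each of 3 alternatives, and the count of pairs correlated by Pearson's r went from 23 to 17 over all mice. No paired analysis was possible because each mouse is a separate animal with its own number. Every member passed the filter on low counts, with a lowest count of 123 in any mouse.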
